A study of Mus musculus with 4 samples.

Results

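Toll-like receptors (TLRs) are sensors of microbial molecules. The 10 genes described here are 7 TLR genes (Tlr1, Tlr2, Tlr3, Tlr4, Tlr6, Tlr7 and Tlr9), the 2 genes of the RP105 complex (Cd180 and Ly86) and the shared adaptor gene Myd88. They were taken by gene symbol, with earlier results of these data known, from 19297 genes on Affymetrix whole-transcript arrays. Each had 1 probe set, the group of array probes summarised into 1 value. RNA came from whole spleens of 129Sv mice, with 1 array per mouse. Both groups were RBP-J flox/flox, so the RBP-J gene was flanked by loxP sites on both alleles in controls as well. The 2 wild type mice were Ren1d+/+, aged 80 and 81 days, with spleens of 0.12 g and 0.16 g. The 2 leukaemic mice were Ren1dcre/cre, with cre recombinase placed at both alleles of a renin gene and so made where that gene is active. Their spleens were labelled as B cell leukaemia. They were 107 and 93 days old (replicates 1 and 2), with spleens of 0.7 g and 0.47 g. Leukaemic replicate 2 was male and the other 3 mice were female. Genotype at Ren1d, age, spleen weight and leukaemia cannot be told apart in this design.

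TLRs differ in where they sense their ligands. TLR1, TLR2, TLR4 and TLR6 act at the cell surface, where TLR2 pairs with TLR1 or TLR6 to bind bacterial lipopeptides and TLR4 binds lipopolysaccharide with MD-2. TLR3, TLR7 and TLR9 act in endosomes, where they bind double-stranded RNA, single-stranded RNA and CpG-containing DNA. MyD88 carries the signal of all of these except TLR3, which uses TRIF, and leads to NF-kappaB activation. RP105, the product of Cd180, resembles TLR4 outside the cell but has no signalling TIR domain, and it reaches the surface together with MD-1, the product of Ly86. In the spleen, B cells carry RP105, TLR7 and TLR9, plasmacytoid dendritic cells carry TLR7 and TLR9, and macrophages, monocytes and neutrophils carry TLR2 and TLR4.

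Promoter sequence was matched by symbol for 8 of the 10 genes (RefSeq, build GRCm38.p6). Tlr4 and Tlr7 were not among them. Windows of 300 bases, reaching 50 bases past the start, were searched on both strands for 5 short motifs. The PU.1 core GAGGAA was found at 2 of the 8 genes (Tlr1 and Tlr9), against 28.3% of all 32851 windows. The E protein site CAGNTG was found at 4 (Tlr1, Tlr2, Tlr9 and Myd88), against 51.4%. The part site of interferon regulatory factors, GAAANNGAA, was found at 3 (Tlr6, Ly86 and Myd88), against 8.56%, and that of NF-kappaB, GGGANTTTC, at 1 (Tlr3), against 1.11%. The EBF site CCCNNGGG was found at 0, against 13.7%. Several of these genes have more than 1 start, and a gene was counted if any of its windows held a match. The shares of all promoters are per window, so they are not directly comparable with these counts per gene. Matches of different motifs were counted separately, and overlap between them was not examined. The 250 bases before the start are shown for Tlr9 and Cd180, the 2 genes that passed the test below, and for Ly86, the partner of Cd180, with matches in capitals.

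Tlr9, plus strand of chr9:106222348-106222597: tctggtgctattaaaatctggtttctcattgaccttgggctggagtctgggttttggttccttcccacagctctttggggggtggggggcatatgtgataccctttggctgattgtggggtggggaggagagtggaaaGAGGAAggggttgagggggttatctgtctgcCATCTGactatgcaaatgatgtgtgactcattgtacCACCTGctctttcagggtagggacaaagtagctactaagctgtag

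Cd180, plus strand of chr13:102693297-102693546: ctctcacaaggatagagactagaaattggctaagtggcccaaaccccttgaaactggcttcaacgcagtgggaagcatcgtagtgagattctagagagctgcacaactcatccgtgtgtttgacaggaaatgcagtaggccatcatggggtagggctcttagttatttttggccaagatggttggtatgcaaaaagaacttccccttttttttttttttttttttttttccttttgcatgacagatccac

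Ly86, plus strand of chr13:37345095-37345344: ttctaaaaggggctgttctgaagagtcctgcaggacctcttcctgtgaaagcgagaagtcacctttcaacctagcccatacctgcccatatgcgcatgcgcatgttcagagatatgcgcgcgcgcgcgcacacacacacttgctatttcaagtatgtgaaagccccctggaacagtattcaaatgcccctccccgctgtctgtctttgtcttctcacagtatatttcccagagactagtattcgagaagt

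In the Tlr9 window the capitals mark 1 PU.1 core, which begins 112 bases before the start, and 2 E protein sites, 81 and 45 bases before it. Another PU.1 core of Tlr9 begins 12 bases past the start, outside the letters shown. No letters are in capitals for Cd180, and the interferon regulatory factor part site of Ly86 begins at the start itself, outside the letters shown. These matches are descriptions of the letters and carry no measurement of binding.

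Tlr9 fell in leukaemic spleen to 47.6% of the wild type level and Cd180 to 53.2%, and none of the 10 genes rose. The comparison asks how this receptor system differs between a spleen with B cell leukaemia and one without it. Levels are log2 values, so a difference of 1 is a 2-fold change. Genes were tested with limma, a linear model with variances shared across genes, and called at a Benjamini-Hochberg adjusted p under 0.05 over all 19297 genes. By this rule 2 of the 10 genes were lower and 0 higher, against 2.46% of all genes called, 1.03% lower and 1.43% higher. The calls over all genes were 276 higher and 199 lower (58.1% higher), or 350 higher and 147 lower (70.4% higher) after centring each array on its median. At an unadjusted p under 0.05, 6 of the 10 were lower and 0 higher, against 10.6% of all genes lower and 20.7% in either direction (2050 lower and 1939 higher), which is also the background for each unadjusted count given later. Both leukaemic arrays lay below both wild type arrays for the same 6 genes (Tlr1, Tlr3, Tlr7, Tlr9, Cd180 and Ly86), against 26.2% of all genes, and above for 0, against 23.0%. The median difference of the 10 genes was -0.89, against -0.03 over all genes. In whole spleen, fewer cells of a type and less RNA per cell cannot be told apart.

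**Figure D1:**
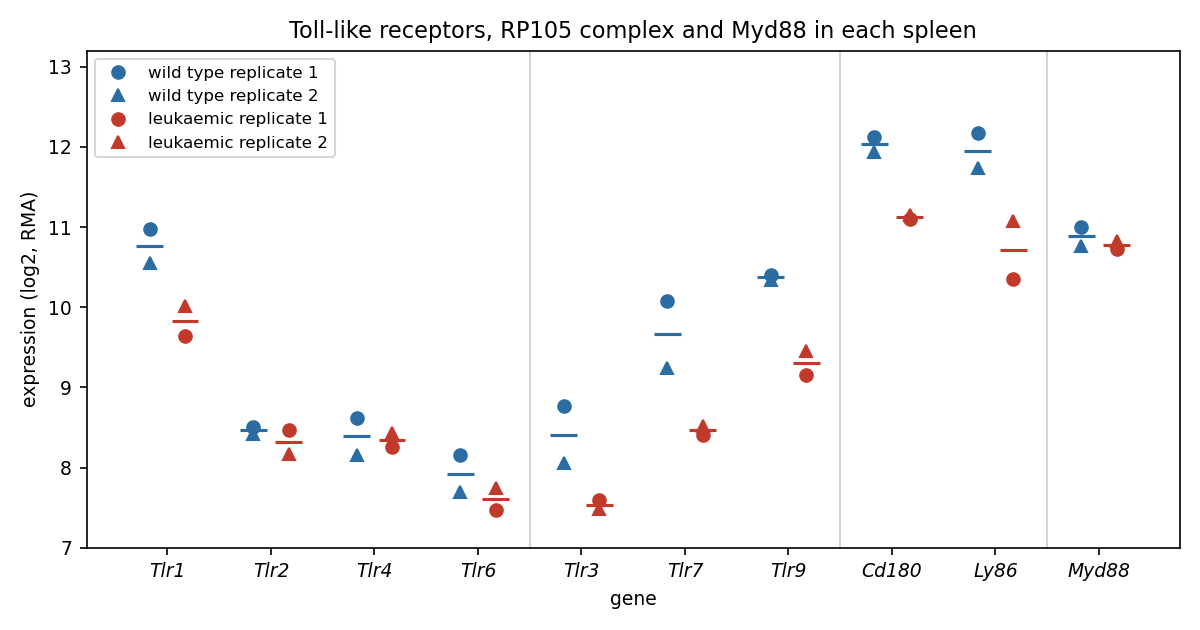
Expression (log2, RMA) of the 10 genes in each of the 4 spleens, grouped into surface receptors, endosomal receptors, RP105 complex and adaptor. Points are mice and horizontal bars are group means. The leukaemic points of Tlr1, Tlr3, Tlr7, Tlr9, Cd180 and Ly86 lie below both wild type points, while the groups overlap for Tlr2, Tlr4, Tlr6 and Myd88. Heights of different genes come from different probes and are not comparable.

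Cd180 (probe set 10406928) encodes RP105 itself. Its level was 12.13 and 11.94 in wild type replicates 1 and 2 against 11.10 and 11.15 in leukaemic replicates 1 and 2. The groups were 0.79 apart at their nearest, more than the 0.19 between the wild type mice or the 0.04 between the leukaemic mice. The mean went from 12.03 ± 0.13 to 11.12 ± 0.03 (SD, n = 2), a log2 difference of -0.91 (SE 0.14, limma adjusted p = 0.033), or 1.88-fold lower.

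Ly86 (probe set 10404606) encodes MD-1, the soluble partner that RP105 needs at the surface. Its level was 12.18 and 11.74 in wild type against 10.35 and 11.07 in leukaemic replicates 1 and 2. Leukaemic replicate 1, the mouse with the heavier spleen, was lowest, 0.72 below the other leukaemic mouse. The difference was -1.24 (SE 0.26), larger than that of Cd180, and missed the threshold (limma adjusted p = 0.062), with a wider leukaemic spread (SD 0.51 against 0.03). Within each array, Cd180 stood -0.05 and 0.20 above Ly86 in wild type against 0.75 and 0.07 in leukaemic spleen. The groups overlapped in this gap, which was widest in leukaemic replicate 1.

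All 3 endosomal receptor genes had both leukaemic arrays below both wild type arrays, and 1 of them, Tlr9, passed the test, against 26.2% and 1.03% (lower) of all genes. Tlr9 (probe set 10588479), the sensor of CpG-containing DNA, read 10.41 and 10.34 in wild type against 9.15 and 9.46 in leukaemic replicates 1 and 2. Its wild type values lay 0.07 apart and the gap between the groups was 0.89. The mean went from 10.38 ± 0.05 to 9.30 ± 0.22 (SD, n = 2), a log2 difference of -1.07 (SE 0.16, limma adjusted p = 0.030), or 2.10-fold lower.

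Tlr7 (probe set 10607870), the sensor of single-stranded RNA, read 10.08 and 9.25 in wild type against 8.41 and 8.52 in leukaemic replicates 1 and 2. The wild type mice differed by 0.84, which is more than the 0.73 between the groups at their nearest. Its difference of -1.20 (SE 0.26) missed the threshold (limma adjusted p = 0.066). Tlr7 lies on the X chromosome, and the male leukaemic mouse stood 0.11 above the female one. Tlr3 (probe set 10578493), the sensor of double-stranded RNA, read 8.76 and 8.06 in wild type against 7.59 and 7.48 in leukaemic spleen. It differed by -0.88 (SE 0.23) and missed the threshold too (limma adjusted p = 0.098), and the wild type mice lay 0.70 apart, again with replicate 1 higher.

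Among the surface receptor genes 0 of 4 passed the test in limma, and 1, Tlr1, was under an unadjusted p of 0.05. Tlr1 (probe set 10530145), whose product joins TLR2 to bind triacylated lipopeptides, read 10.98 and 10.56 in wild type against 9.64 and 10.02 in leukaemic replicates 1 and 2. All leukaemic values lay below all wild type values, with a difference of -0.94 (SE 0.20, limma adjusted p = 0.065). Tlr6 (probe set 10530151), the neighbouring gene on chromosome 5 and the alternative partner of TLR2, read 8.15 and 7.70 against 7.47 and 7.74. Here the groups overlapped, with a difference of -0.32 (SE 0.20, 95% interval -0.79 to 0.14). The sequences of Tlr1 and Tlr6 are related, so some probes could take up transcripts of both, which was not tested.

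Tlr2 and Tlr4 showed overlapping groups. Tlr2 (probe set 10498992), the shared lipopeptide receptor, read 8.51 and 8.42 in wild type against 8.47 and 8.18 in leukaemic spleen. Its difference was -0.14 (SE 0.16, limma adjusted p = 0.72), with a 95% interval from -0.51 to 0.23. Tlr4 (probe set 10505517), the lipopolysaccharide receptor, read 8.62 and 8.16 in wild type against 8.26 and 8.43 in leukaemic spleen. Both leukaemic values lay between the wild type values, and the difference was -0.05 (SE 0.19, 95% interval -0.50 to 0.40). After centring each array on its median, the Tlr4 difference was 0.01.

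Myd88 (probe set 10597648), the adaptor that links these receptors to their kinases, read 10.998 and 10.77 in wild type against 10.73 and 10.83 in leukaemic spleen. The groups overlapped, with a difference of -0.10 (SE 0.15, limma adjusted p = 0.81) and a 95% interval from -0.46 to 0.25. That interval does not reach the Tlr9 difference of -1.07.

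Several gaps between these genes within an array differed between the groups. Tlr9 stood 1.90 and 1.92 above Tlr2 in wild type against 0.68 and 1.28 above it in leukaemic spleen. Relative to Myd88, Tlr9 was at -0.59 and -0.43 in wild type against -1.58 and -1.37 in leukaemic spleen. Tlr1 stood 2.83 and 2.86 above Tlr6 in wild type against 2.17 and 2.28 in leukaemic spleen. For each of these 3 pairs the groups did not overlap. Cd180 stood 3.51 and 3.78 above Tlr4 in wild type against 2.85 and 2.72 in leukaemic spleen, again without overlap. Tlr6 in both groups, and Tlr2 and Tlr4 in leukaemic spleen, lay under the background level described below. In wild type Tlr2 and Tlr4 lay close above it, so the gaps to these 3 genes are not exact. These gaps were chosen after the values were seen and were not tested.

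**Figure D2:**
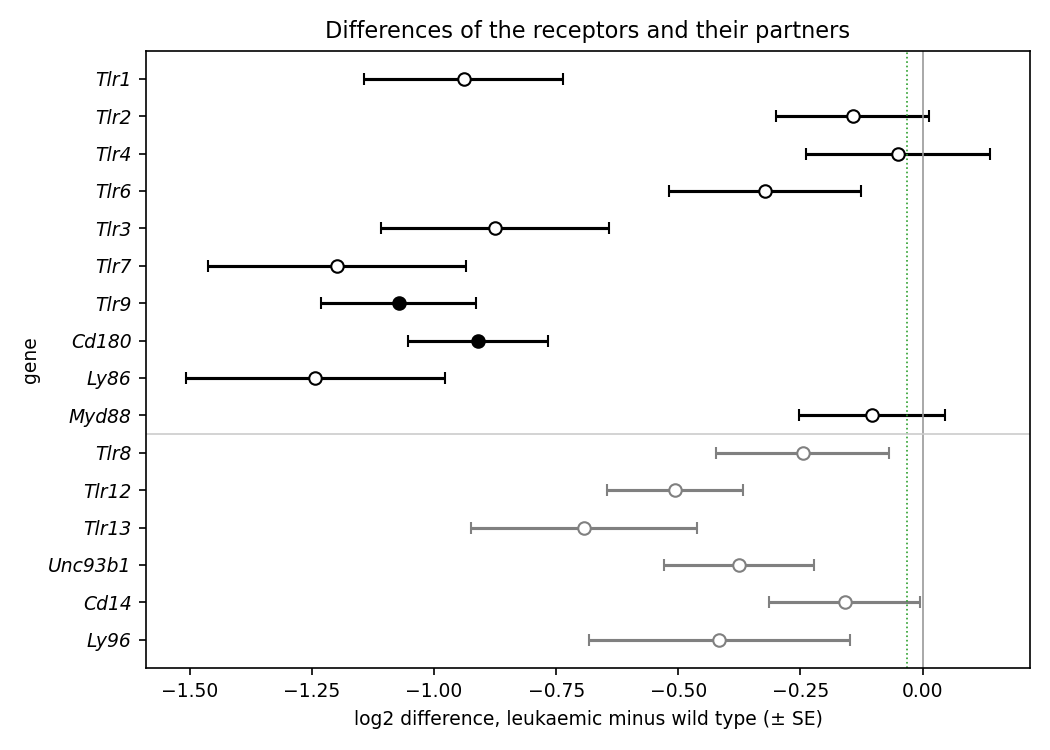
Log2 difference, leukaemic minus wild type, of the 10 genes (black) and of other TLR genes and partner genes (grey), with the SE of the moderated fit. Filled symbols passed the test. Only Tlr9 and Cd180 are filled among the genes drawn. The dotted line is the median of all genes, -0.03.

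With 1 mouse left out, the fit falls from 2 residual degrees of freedom to 1, and the calls over all genes fall to 12 higher and 26 lower without wild type replicate 1 and to 0 without wild type replicate 2. A call lost in those 2 fits therefore says little about the gene, and the differences are the values to read. Without wild type replicate 1, Tlr9 and Cd180 differed by -1.04 and -0.82 and neither was called (limma adjusted p = 0.15 each). Without wild type replicate 2 they differed by -1.11 and -1.003 (0.16 and 0.15). Without leukaemic replicate 1 Tlr9 and Cd180 differed by -0.92 and -0.89 and neither was called, while Tlr7 differed by -1.14. Without leukaemic replicate 2, the male, Tlr9 and Cd180 differed by -1.23 and -0.93, Tlr1 by -1.13, Tlr7 by -1.25 and Ly86 by -1.60. Each fit without a leukaemic mouse gave every gene 1 common variance, so calls there do not rest on a gene's own spread. The Ly86 difference was -0.88 without leukaemic replicate 1. The Tlr7 difference was -0.78 without wild type replicate 1 and -1.62 without wild type replicate 2, and that of Tlr3 was -0.53 and -1.22. Each of these fits estimates the shared variance anew, so their adjusted p-values are not directly comparable. Directions of the 6 genes with separate groups cannot turn in these fits, because their arrays do not overlap. Requiring a change above 1.2-fold also ended both calls (limma treat adjusted p = 0.076 for Tlr9 and 0.098 for Cd180).

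**Figure D3:**
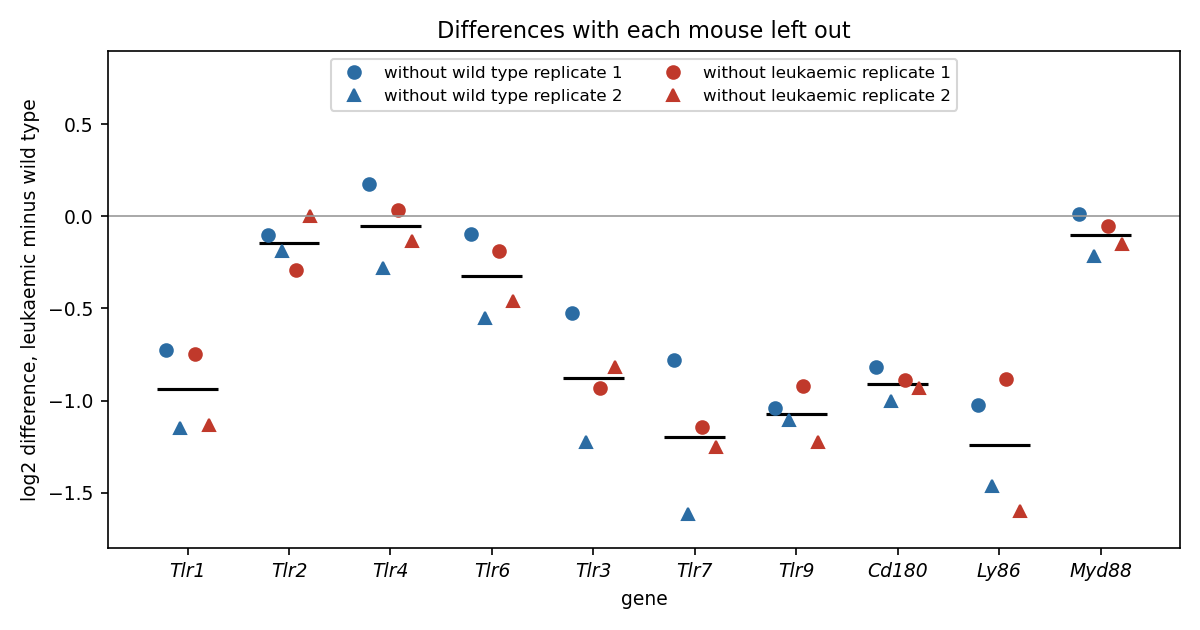
Log2 difference, leukaemic minus wild type, of each of the 10 genes with all mice (black bar) and with each mouse left out (points). Tlr9 stays between -1.23 and -0.92 and Cd180 between -1.003 and -0.82, while Ly86 spans -1.60 to -0.88 and Tlr4 lies on both sides of 0.

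The levels bear on how these differences can be read. Over 24 genes of other tissues, which are not expected in spleen, the highest mean of the 4 arrays was 8.37 and the median 6.26. Leukaemic means of Tlr2 (8.32), Tlr3 (7.54), Tlr4 (8.34) and Tlr6 (7.60) lay under 8.37, so these genes are not shown to be above background there and their differences are not exact folds. Wild type means of Tlr2 (8.46), Tlr3 (8.41) and Tlr4 (8.39) lay close above 8.37, as did the leukaemic mean of Tlr7 (8.47). The Tlr7 difference is therefore not an exact fold either. Wild type replicate 2 was under 8.37 for Tlr3 (8.06) and Tlr4 (8.16). Tlr9, Cd180, Ly86, Tlr1, Tlr7 and Myd88 had both group means above 8.37. Among genes named later, the same limit holds for Tlr12, Cd14, Il18r1, Il18rap, Tnf, Siglech, Ccr9, Hepacam2, Trim7, Chst10 and Fmo5 in leukaemic spleen. It also holds for Igll1, Tlr12, Cd14, Il18rap and Hepacam2 in wild type. Wild type replicate 1 lay above wild type replicate 2 for all 10 genes, by a median of 0.43, against 44.4% of all genes and a median of -0.04. Wild type replicate 2 also carried pancreas transcripts, with a mean of 11.84 over 12 measured exocrine pancreas genes against 6.75 to 6.81 in the other spleens. The part of that RNA in the differences was not tested. In leukaemic spleen, 8 of the 10 genes were lower in replicate 1 than in replicate 2, against 44.3% of all genes.

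Other TLR genes lay lower too, without passing the test. Of 5 listed, 3 were measured, and limma called 0, with 2 under an unadjusted p of 0.05. Tlr13, a sensor of bacterial ribosomal RNA, read 9.90 and 9.21 in wild type against 8.80 and 8.91 in leukaemic spleen, a difference of -0.69 (SE 0.23). Tlr12, a sensor of parasite profilin, differed by -0.51 (SE 0.14). Its means of 7.55 in wild type and 7.04 in leukaemic spleen both lay under the background level given above. Tlr8, the neighbour of Tlr7 on the X chromosome, differed by -0.25 (SE 0.18), with arrays of the groups 0.02 apart at their nearest. Tlr7 stood 1.12 and 0.72 above Tlr8 in wild type against -0.09 and 0.03 relative to it in leukaemic spleen.

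Genes whose products deliver ligands, escort receptors or act in endosomes were not called. Of 18 measured, limma called 0, with 2 higher and 5 lower at an unadjusted p under 0.05, and the median difference was -0.31. Unc93b1, which escorts the endosomal TLRs out of the endoplasmic reticulum, read 11.56 and 11.48 in wild type against 11.01 and 11.28 in leukaemic spleen (difference -0.37, SE 0.15, adjusted p = 0.23). Relative to Unc93b1, Tlr9 was at -1.15 and -1.14 in wild type against -1.86 and -1.82 in leukaemic spleen, so Tlr9 was lower also beside its chaperone. Pld4, an endosomal nuclease that degrades TLR9 ligands, differed by -0.71 (SE 0.14, adjusted p = 0.057). Hmgb1, a nuclear protein that TLRs sense when it is released, differed by 0.81 (SE 0.15, adjusted p = 0.051). It was called higher after median centring, with a trended or a robust variance prior, and with probe sets averaged, and in the fit with the replicate number as a block. It was not called after quantile normalization, without the dimmest genes, with all probe sets, with the 1.2-fold minimum or with any 1 mouse left out. The lipopolysaccharide partners Ly96, which encodes MD-2, and Cd14 had overlapping groups, with differences of -0.42 (SE 0.27) and -0.16 (SE 0.16). Ly86 stood 2.15 and 2.53 above its relative Ly96 in wild type against 1.04 and 1.99 in leukaemic spleen.

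Adaptor, kinase and ubiquitin ligase genes of TLR signalling were mostly not called. Among 7 other adaptor genes limma called 0, with 1 higher and 2 lower at an unadjusted p under 0.05. Scimp, an adaptor of antigen-presenting cells, differed by -0.90 (SE 0.22) and Ticam1, which encodes TRIF, by -0.46 (SE 0.16). Of 19 kinase and ubiquitin ligase genes 2 fell and 0 rose, against 1.03% and 1.43% of all genes. Irak2, a kinase recruited to MyD88, read 9.80 and 9.77 in wild type against 8.42 and 8.92 in leukaemic spleen, a difference of -1.12 (SE 0.19, limma adjusted p = 0.039). Ikbke, a kinase of interferon regulatory factors, read 9.86 and 9.80 against 8.80 and 9.06, a difference of -0.90 (SE 0.15, limma adjusted p = 0.038). The groups did not overlap for either gene and lay 0.85 and 0.74 apart at their nearest. The Irak2 call was lost after quantile normalization and with all probe sets in the fit (adjusted p = 0.058 and 0.0501). Without leukaemic replicate 1 both calls were lost, with differences of -0.87 for Irak2 and -0.77 for Ikbke. Without wild type replicate 1 or 2, fits that call few or no genes, Irak2 differed by -1.10 and -1.13 and Ikbke by -0.87 and -0.93, and neither was called.

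NF-kappaB and IRF genes, which encode the transcription factors at the end of the pathway, had both leukaemic arrays below both wild type arrays in 9 of 9 measured cases, against 26.2% of all genes. Limma called 0 of them, with 6 lower at an unadjusted p under 0.05, and the median difference was -0.57. Irf7, the factor that drives interferon genes after TLR7 and TLR9 engagement, read 10.45 and 9.70 in wild type against 9.01 and 8.85 in leukaemic spleen (difference -1.15, SE 0.25, adjusted p = 0.063). Nfkb2 differed by -0.73 (SE 0.16, adjusted p = 0.067). Among 18 negative regulators limma also called 0, with 1 higher and 5 lower at an unadjusted p under 0.05. Nfkbie, an inhibitor of NF-kappaB, differed by -0.75 (SE 0.16) and Usp18, which removes ISG15 from proteins, by -0.72 (SE 0.17).

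Inflammatory target genes included 3 of 20 that fell and 0 that rose, against 1.03% and 1.43% of all genes. Cxcl10, an interferon-induced chemokine, read 10.002 and 10.12 in wild type against 8.53 and 8.77 in leukaemic spleen, a difference of -1.41 (SE 0.15, limma adjusted p = 0.013). Tnf differed by -1.13 (SE 0.16, limma adjusted p = 0.026), which is not an exact fold because its leukaemic mean of 8.14 lay under the background level, and Ccl5, a chemokine also made by T and NK cells, by -1.04 (SE 0.19, limma adjusted p = 0.044). Without wild type replicate 1 or 2 none of the 3 was called, with differences of -1.47 and -1.35 for Cxcl10, -1.04 and -1.23 for Tnf and -0.90 and -1.18 for Ccl5. The Ccl5 call was also lost without leukaemic replicate 1 (difference -0.85), after quantile normalization (adjusted p = 0.057), with all probe sets in the fit (0.055) and with the 1.2-fold minimum (0.12). The 1.2-fold minimum also ended the calls of Irak2 (0.10), Ikbke (0.12) and Tnf (0.060), not that of Cxcl10. The list median was -0.19.

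Receptors and partners outside the TLR family passed in 0 cases. Of 7 measured RP105 signalling partners limma called 0, with 1 lower at an unadjusted p under 0.05. Btk, a B cell kinase, differed by -0.41 (SE 0.14) and Vav2, a guanine nucleotide exchange factor, by -0.39 (SE 0.17), and the list median was -0.14. In the interleukin-1 receptor family, which also uses MyD88, limma called 0 of 5, with 2 lower at an unadjusted p under 0.05. The interleukin-18 receptor genes Il18r1 and Il18rap differed by -1.12 (SE 0.31) and -0.74 (SE 0.26). Of 18 other pattern recognition receptor genes limma called 0, with 7 lower at an unadjusted p under 0.05. Nod1, a sensor of peptidoglycan fragments, differed by -0.83 (SE 0.17) and Aim2, a sensor of cytosolic DNA, by -0.88 (SE 0.21). Over the 124 measured pathway genes without the 10, limma called 5 lower (4.03%, against 1.03% of all genes) and 0 higher (against 1.43%). At an unadjusted p under 0.05, 42 were lower and 6 higher (against 10.6% of all genes lower and 20.7% in either direction), and the median difference was -0.26. The 5 are Irak2, Ikbke, Cxcl10, Tnf and Ccl5. The pathway lists were chosen with earlier results of these data known. The count of pathway genes called lower was 0 without wild type replicate 1 or 2, fits that call few or no genes, and 16 without leukaemic replicate 2.

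**Figure D4:**
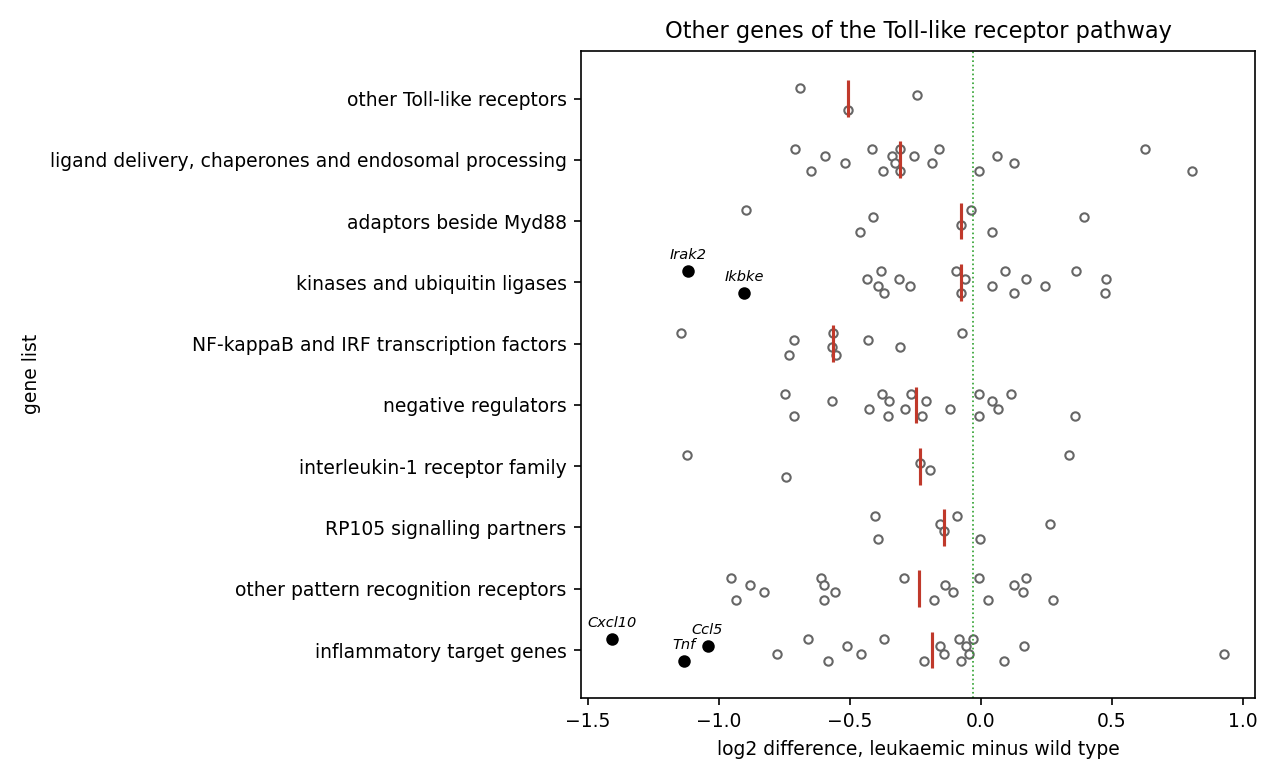
Log2 difference, leukaemic minus wild type, of each measured gene in 10 pathway lists. Filled and named points passed the test, red bars are list medians and the dotted line is the median of all genes. The 5 filled points lie between -1.41 and -0.90, and the list of NF-kappaB and IRF transcription factors has its whole range below 0.

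Marker genes of the cells that carry these receptors differed as well. The spleens held the markers of their labelled tissue, with means over B cell genes of 11.66 and 11.44 in wild type against 11.34 and 11.53 in leukaemic spleen. In that list of 11 measured genes 2 rose and 1 fell, with a median of -0.04. Over all genes 1.43% were called higher and 1.03% lower, which is the background for each count of marker genes that rose or fell. Pou2af1 and Ebf1, B cell transcriptional regulators, rose by 0.92 (SE 0.14) and 1.11 (SE 0.18), and Cd22, an inhibitory B cell receptor, fell by 0.84. Cd22 was named after its value was seen. Precursor B cell genes rose in 9 of 13 cases, with a list mean of 7.96 and 7.87 in wild type against 10.19 and 10.36 in leukaemic spleen. Igll1, of the surrogate light chain, rose by 5.47 (SE 0.14). Mature B cell genes fell in 2 of 10 cases (Cr2 and Ciita), with a mean of 11.37 and 11.09 against 9.85 and 10.50. All 10 were lower at an unadjusted p under 0.05 in limma.

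Each of the RP105 genes and Tlr9 was also set against the mean of each marker list within each array. Relative to the mean of the general B cell list, Cd180 was at 0.46 and 0.50 in wild type against -0.24 and -0.39 in leukaemic spleen, without overlap. Tlr9 was at -1.25 and -1.10 against -2.19 and -2.08, and Ly86 at 0.51 and 0.29 against -0.99 and -0.46. Relative to the mature B cell list, the groups overlapped for Cd180 (0.76 and 0.86 against 1.25 and 0.64) and Tlr9 (-0.96 and -0.74 against -0.70 and -1.05). Ly86 was at 0.80 and 0.65 against 0.50 and 0.57, without overlap. Over all 13 lists the groups overlapped for Cd180 in 6, Ly86 in 6 and Tlr9 in 7, and for all 3 genes these included NK cells, neutrophils and conventional dendritic cells, so overlap was not particular to mature B cell genes. These gaps compare different probes, so only their change between groups is read.

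Lists of the other cells that carry TLRs had lower means in both leukaemic mice. For plasmacytoid dendritic cells, 4 of 8 measured genes fell, with list means of 9.61 and 9.28 in wild type against 8.22 and 8.35 in leukaemic spleen, and Siglech and Ccr9 fell, with differences of -2.15 (SE 0.26) and -2.02 (SE 0.15). For conventional dendritic cells 5 of 12 fell, with means of 8.42 and 8.17 against 7.33 and 7.36. Of 15 macrophage genes limma called 0, with 11 lower at an unadjusted p under 0.05, and the means were 10.94 and 10.72 against 10.24 and 10.34. Of 10 monocyte genes it called 0, with 8 lower and 1 higher at an unadjusted p under 0.05, and means of 10.30 and 10.02 against 9.67 and 9.80. Neutrophil genes fell in 3 of 12 cases (means of 10.97 and 10.96 against 9.30 and 10.28). Tlr2 and Tlr4, which these cells carry, had overlapping groups and lay near the background level in both groups. T cell genes fell in 6 of 12 and NK cell genes in 5 of 10 cases, with median differences of -1.44 and -1.37. The part of any of these lists in the differences of the 10 genes was not tested.

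**Figure D5:**
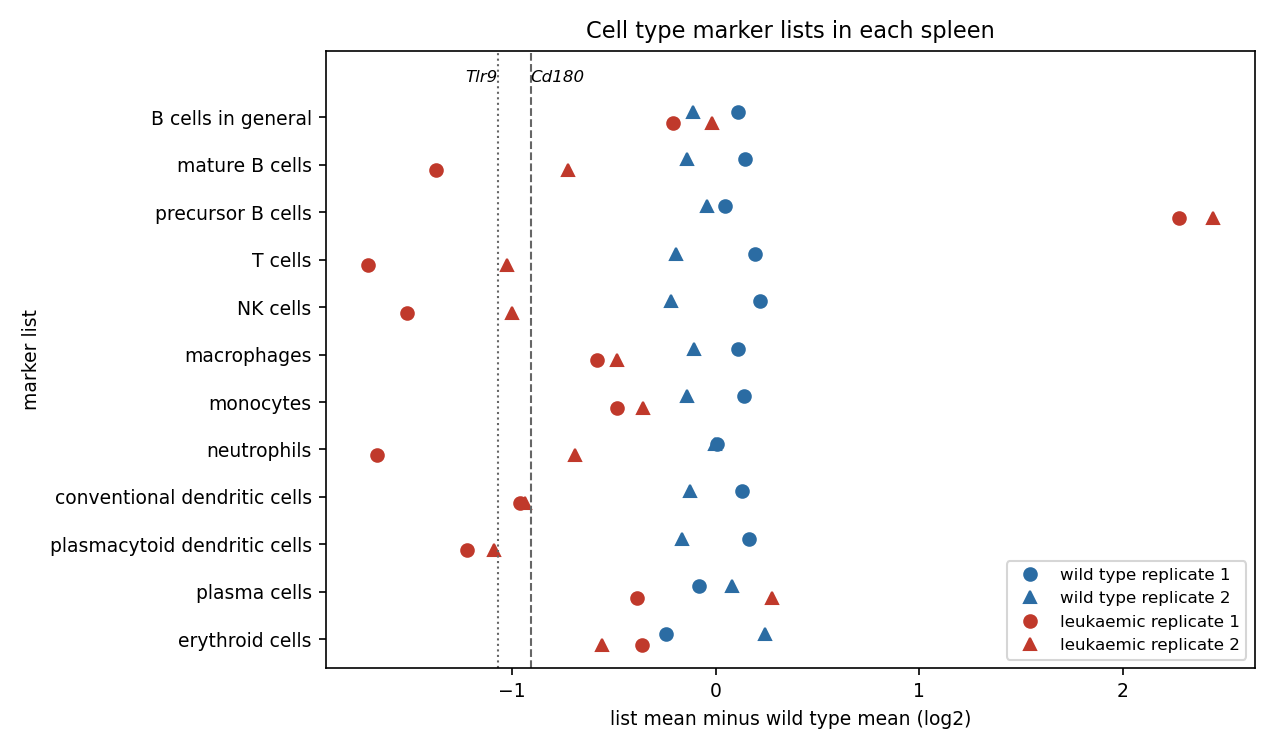
Mean of each marker list in each spleen, given as the difference from the wild type mean (log2), for 12 of the 13 lists. The list for exocrine pancreas is not drawn. Vertical lines mark the differences of Tlr9 (-1.07) and Cd180 (-0.91). Leukaemic points lie left of both wild type points for 9 lists, right of them for precursor B cells, between or around them for plasma cells, and overlap for B cells in general.

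Genes with the profile most like each called gene were found by the root mean square difference over the 4 arrays, with each gene centred on its own mean. Nearest to Tlr9 were Hepacam2 (0.03), Trim7 (0.04) and Chst10 (0.04), all of which fell, by 1.12, 1.04 and 1.11. Nearest to Cd180 were Saraf (0.03), a regulator of store-operated calcium entry, Hpcal1 (0.04) and Fmo5 (0.04), which fell by 0.86 each. Hepacam2 lay under the background level in both groups, and Trim7, Chst10 and Fmo5 in leukaemic spleen, so their falls are not exact. These genes were picked for a profile that falls. With 4 arrays in 2 groups many genes can share such a profile, and the likeness is a description of these spleens.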

How the data were processed

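The authors deposited 1 table of log2 expression values made with RMA (R 2.15.0 and limma 3.12.1 are named per the submitters' processing notes). RMA subtracts background, makes the arrays' distributions alike and summarises the probes of a set, which compresses low levels. The sources used here name neither its settings nor the genome build. Array medians were 7.96 to 8.03. Of 23309 probe sets, 20729 were paired with 1 gene symbol in the platform annotation, 1174 with several and 1406 with none. A gene with several sets (804 genes) was represented by the set of highest mean, which left 19297 genes. Groups were taken from sample titles.

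Differences were tested by lmFit and eBayes of limma 3.58.1 (R 4.3.3), a fit that had 2 residual degrees of freedom, and p-values were adjusted over all genes. The script was tested on simulated data. Tables and figures were made with Python 3.11.15. Only 4 arrays limit the precision. The p-values rest on the spread between these mice together with a variance shared over all genes. The shared variance weighed more, with 4.83 prior against 2 residual degrees of freedom.

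The 10 genes and 24 gene lists (314 genes, 288 measured) were chosen with earlier results of these data known. Named genes were the 10, the other measured TLRs, Ly96, Cd14 and Unc93b1, up to 3 called genes each way per pathway list or else the 2 of smallest p, and the 3 nearest profiles of each called gene. Alternatives were median centring, quantile normalization, leaving out the dimmest 33.3% of genes, trended and robust priors, a 1.2-fold minimum, averaged or all probe sets, a replicate block and each mouse left out. Protein sequences were not used here.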

Additional observations from a re-analysis of the deposited data

Results flagged for a closer look

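Probe set 10429455 lay outside the comparisons because the annotation pairs it with Hmgb1 and 4 other symbols. It read 10.48 and 10.26 in wild type against 11.48 and 11.21 in leukaemic spleen, a difference of 0.98 (limma adjusted p = 0.047 over all probe sets). It was picked out as a signal in data that no comparison used, and was the 1 that passed of 29 such probe sets that name a pathway gene. All 29 name Hmgb1, with differences from -0.60 to 2.10 and a median of 0.55. Of these, 25 were above 0 and 4 below 0.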

How the results depend on the processing

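All listed alternatives were run. Tlr9 and Cd180 were called in 9 of 13. With 1 mouse left out, both were called only in the fit without leukaemic replicate 2. Of the 10 genes, 2 were called lower. The count was 3 with the trended prior (Ly86 added, limma adjusted p = 0.048) and 3 with the robust prior (Tlr1 added, limma adjusted p = 0.036). It was 0 with a 1.2-fold minimum, which is stricter by construction, and 6 with the replicate block. The other pathway genes called higher numbered 0, and 1 each with median centring, trended prior, robust prior and averaged probe sets, 3 with the block and 0 to 1 with 1 mouse left out. Those called lower numbered 5, and 3 with quantile normalization, 14 with the robust prior, 1 with the fold minimum, 3 with all probe sets, 22 with the block and 0 to 16 with 1 mouse left out. Over all genes, 276 higher and 199 lower became 168 and 93 with quantile normalization, 501 and 473 with the robust prior, 97 and 26 with the fold minimum, and 785 and 908 with the block. The lower calls were 121 with all probe sets. With 1 mouse left out they ranged from 0 to 450 higher and from 0 to 593 lower. Fits without wild type replicate 1 or 2 call 12 higher and 26 lower, or 0, of all genes, so calls lost there say little about single genes. The causes were not tested. Tlr2 ranged from -0.29 to 0.0015, Tlr4 from -0.28 to 0.18 and Myd88 from -0.22 to 0.011 with 1 mouse left out, and Tlr4 was 0.015 after median centring. Without leukaemic replicate 1 Tlr4 differed by 0.03. The replicate number pairs no mice per the labels, and deviations of same-numbered mice correlated at -0.089, so the block has no basis in the design. Group means near those of genes of other tissues limit what can be read from Tlr2, Tlr3, Tlr4 and Tlr6, and from Tlr7 in leukaemic spleen.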
